A study of Drosophila melanogaster with 18 samples.

Results

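The genes followed were 6 known from sexual behaviour and the sex-specific fat body: to (takeout), fit (female-specific independent of transformer), sxe1 (sex-specific enzyme 1, FlyBase symbol Cyp4d21), sxe2 (sex-specific enzyme 2), dsf (dissatisfaction) and retn (retained). They were found by symbol, or for sxe1 by FlyBase synonym, in exon count tables of whole Drosophila pupae. These 6 of 17753 genes held 39 of 87508 exon records, where a record is 1 exon of 1 annotated transcript. Translating ribosome affinity purification (TRAP) recovers mRNA bound to a tagged ribosomal protein made in chosen cells, and its partner here is the total mRNA of the lysate before purification (male total and female total below).

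All animals carried 1 copy of fru P1-Gal4, P[w+mC, UAS-Gal4] and P[w+mC, UAS-GFP::RpL10A] and had a w mutant X chromosome, so males and females differed by sex and the fractions differed by purification. The fru P1-Gal4 driver marks the cells that transcribe the fruitless P1 promoter, best known as neurons of courtship circuits, and the UAS-Gal4 insertion adds Gal4 wherever the driver is active. Pupae were sexed at the white prepupal stage, kept at 25 °C and frozen at 48 hr after puparium formation (APF), and the animals of a sex were pooled in large numbers for each lysate. There were 5 male lysates (replicates 1, 2, 3, 5 and 6) and 4 female lysates (replicates 2, 3, 4 and 5), each with a library of either fraction, so the 4 groups hold 18 libraries. A same-numbered TRAP and total library of a sex share a lysate, and each lysate is a pool, so p-values measure the spread between pools.

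In adult flies the fat body of the head surrounds the brain, stores nutrients and secretes proteins into the hemolymph, and part of its expression depends on sex. The takeout protein belongs to a family of secreted proteins that resemble juvenile hormone binding proteins, and it is known for male-enriched expression in the adult head and for effects on courtship and feeding. The fit gene encodes a small secreted protein that is female-enriched in the adult head fat body. The sxe1 gene encodes a cytochrome P450 and sxe2 a lipase-like protein, and both are known for sex-biased expression in adult heads. The dsf gene encodes a nuclear receptor related to Tailless, and retn encodes a DNA-binding protein with an ARID domain. Both are known for roles in nervous system development and in the sexual behaviour of the adult fly.

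The genes lie on 3 chromosome arms of the dm6 build. On arm 3R, to spans 25240180 to 25241668 on the plus strand (5 exon records), fit spans 21883924 to 21884454 on the minus strand (1 record) and sxe2 spans 16083878 to 16087222 on the plus strand (6 records). On arm 2L, sxe1 spans 7605600 to 7607701 (5 records) and dsf spans 5925937 to 5939261 (6 records), both on the plus strand. The retn gene, with 16 records, runs on the plus strand of arm 2R from 23632610 to 23654820. Records of 2 of the genes overlap other genes. The single fit exon, which holds both untranslated regions and the coding sequence, overlaps asRNA:CR45046 on its own strand and CG31465 on the opposite strand. The first dsf exon, with the 5′ untranslated region and the start of the coding sequence, overlaps asRNA:CR43926 on the opposite strand. The library kit keeps strand, but the strand setting of the counting is not given in the sources used here, so for these records reads of the partner genes cannot be told apart.

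Library totals over all exon records were 24901633 to 67491630 reads. Levels are given in RPM, reads per 1000000 gene counts of a library, where a gene's count is the sum over its exon records that do not overlap each other (16700545 to 44024666 per library). The driver's own gene, fru, measured 349 ± 89.9 RPM in male TRAP against 78.7 ± 7.70 in male total (SD, n = 5 each), and 377 ± 67.3 in female TRAP and 131 ± 30.3 in female total (SD, n = 4 each). All 10 neuronal markers were higher in male TRAP and 8 of 10 in female TRAP (edgeR quasi-likelihood test at a false discovery rate, FDR, under 0.05). Libraries were scaled by TMM, and by RLE size factors as an alternative. TMM did not bring the typical gene to a common level in every comparison. For males over females in total mRNA, the median log2 fold change over all genes was −0.63 with TMM and −0.040 with RLE. In whole pupae, fewer cells of a type and less RNA per cell cannot be told apart.

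Of the 6 genes, 4 were close to the limit of detection. To, fit, sxe1 and dsf did not exceed 1 CPM in at least 4 libraries, the minimum set for the gene test, while sxe2 and retn did. In the filters CPM holds no scaling between libraries, so here it equals RPM. Elsewhere CPM is taken after TMM scaling. Per kilobase of exon (RPKM), the order in male TRAP was retn (2.38 ± 0.547), sxe2 (1.68 ± 0.726), fit (0.770 ± 0.379), sxe1 (0.189 ± 0.0783), dsf (0.186 ± 0.0330) and to (0.155 ± 0.108, SD, n = 5). The neighbours retn and sxe2 lay within their spread, as did sxe1, dsf and to. Of the 17124 genes with any count, 34.9% had a lower mean RPKM than retn in male TRAP, and 11.2% had a lower mean than to. In female TRAP the order was retn (2.30 ± 0.574), fit (1.06 ± 0.427), sxe2 (0.362 ± 0.179), sxe1 (0.1998 ± 0.1024), dsf (0.156 ± 0.0289) and to (0.140 ± 0.107, SD, n = 4), and neighbours among the last 4 lay within their spread. In male total the order was retn (2.14 ± 0.417), sxe2 (1.84 ± 0.395), dsf (0.128 ± 0.0638), fit (0.117 ± 0.0889), sxe1 (0.0532 ± 0.0345) and to (0.0209 ± 0.0266, SD, n = 5), with every neighbouring pair but sxe2 and dsf within its spread. In female total retn (3.41 ± 0.397) stood above sxe1 (0.165 ± 0.243), sxe2 (0.146 ± 0.0802), fit (0.0721 ± 0.0871) and dsf (0.0547 ± 0.0249, SD, n = 4), where each neighbouring pair of these 4 lay within its spread, and to was at 0.

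**Figure D1:**
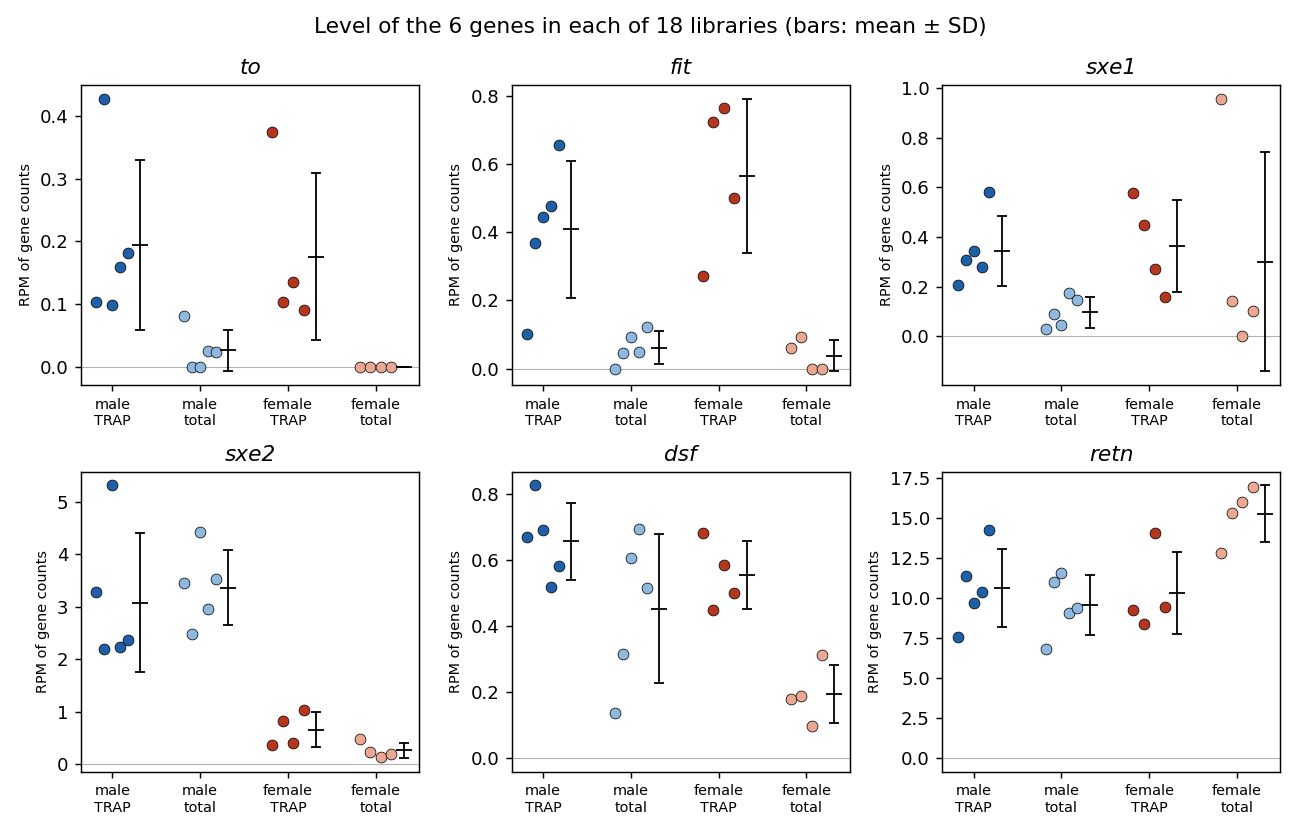
RPM of gene counts (vertical axes, linear, a scale for each gene) in each of the 18 libraries, with the mean and SD of each group beside the points; a group has 5 male or 4 female libraries. To and fit have their higher values in TRAP of both sexes, sxe2 in both male fractions, and retn is at 12.8 to 16.97 RPM in female total, where 1 male TRAP and 1 female TRAP library reach above the lowest of these.

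The first question was which of the genes were higher in the mRNA bound to tagged ribosomes than in total mRNA of the same sex. To and fit were higher in TRAP of both sexes, sxe1 in males and dsf in females, and sxe2 was at the edge of the threshold in females. To was counted 27 times in the 5 male TRAP libraries and 5 times in the 5 male total libraries, and 21 times in the 4 female TRAP libraries against 0 in the 4 female total libraries. All 4 low genes were tested by exact permutation of libraries on log2(RPM + 0.5), a scale that understates the change of low genes. Within a sex the libraries were permuted freely, so these p-values do not keep the lysate pairs.

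The level of to in male TRAP was 0.103, 0.428, 0.0984, 0.159 and 0.182 RPM in replicates 1, 2, 3, 5 and 6. In male total it was 0.0815, 0, 0, 0.0247 and 0.0245 RPM in the same order. Replicate 2 was high in TRAP, and the fractions did not overlap. Female TRAP measured 0.375, 0.103, 0.135 and 0.0909 RPM in replicates 2, 3, 4 and 5, and no read of to was counted in female total, which allows a level of up to 0.0384 RPM (3 counts over the group, counting error only). To was higher in TRAP in 5 of 5 male and 4 of 4 female lysates. On the log2(RPM + 0.5) scale the difference was 0.38 in males (exact permutation test, two-sided, p = 0.00794) and 0.42 in females (p = 0.0286). Each is the smallest p that free permutation of the libraries allows at these group sizes. The ratio of pooled reads was 6.98 in males (95% counting interval 2.65 to 23.2). In females the pooled TRAP level was 4.39 times the floor of 3 counts in female total. That value leaves out the counting error of the 21 TRAP reads. Without the high library, replicate 2 of TRAP, the differences were 0.27 in males and 0.29 in females (exact permutation p = 0.0159 and 0.0286).

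The fit gene was higher in TRAP of both sexes. Its level in female TRAP was 0.273, 0.724, 0.763 and 0.4997 RPM in replicates 2, 3, 4 and 5, against 0.0599, 0.0933, 0 and 0 RPM in female total. The fractions did not overlap. Male TRAP measured 0.103, 0.367, 0.443, 0.478 and 0.654 RPM in replicates 1, 2, 3, 5 and 6, and male total 0, 0.0451, 0.0930, 0.0495 and 0.122 RPM. In males the fractions overlapped at a single point, since replicate 1 of TRAP lay below replicate 6 of total mRNA, and TRAP was higher in all 5 lysates. The difference on the log2(RPM + 0.5) scale was 0.67 in males (exact permutation p = 0.0159) and 0.96 in females (p = 0.0286). Pooled reads were 53 against 10 in males, a ratio of 6.85 (95% counting interval 3.45 to 15.1), and 68 against 3 in females, a ratio of 14.2 (4.66 to 70.6). Leaving out any 1 of the 4 female total libraries raised the exact p to 0.0571. The partner on the opposite strand, CG31465, had a last record with 660 to 1360 reads in male total, 257 to 654 in male TRAP and 4 to 12 in the female libraries. The 1 record of asRNA:CR45046 that overlaps fit held 1 to 10 reads in male TRAP against 0 to 2 in male total, and its part in the fit counts was not tested.

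The sxe1 gene was higher in TRAP of males. Male TRAP measured 0.206, 0.306, 0.345, 0.279 and 0.582 RPM in replicates 1, 2, 3, 5 and 6, and male total 0.0272, 0.0901, 0.0465, 0.173 and 0.147 RPM. The 2 fractions did not overlap, and the difference was 0.49 on the log2(RPM + 0.5) scale (exact permutation p = 0.00794). Pooled reads were 44 against 17, a ratio of 3.35 (95% counting interval 1.87 to 6.25). In females TRAP measured 0.579, 0.448, 0.269 and 0.159 RPM and total mRNA 0.958, 0.140, 0 and 0.103 RPM in replicates 2, 3, 4 and 5. Replicate 2 was the highest library of both female fractions, and the fractions overlapped (difference 0.22, exact permutation p = 0.571). Without replicate 2 of female total the difference was 0.55 (exact permutation p = 0.0571). The test of the sex difference over lysates gave 0.27 (exact permutation p = 0.310), so a difference between the sexes in the TRAP contrast of sxe1 was not shown.

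For dsf the fractions differed in females. Female TRAP measured 0.681, 0.448, 0.583 and 0.4997 RPM in replicates 2, 3, 4 and 5, and female total 0.180, 0.187, 0.0967 and 0.310 RPM. TRAP was higher in 4 of 4 lysates with no overlap (difference 0.61 on the log2(RPM + 0.5) scale, exact permutation p = 0.0286; pooled ratio 2.84, 95% counting interval 1.61 to 5.35). Male TRAP measured 0.668, 0.825, 0.689, 0.518 and 0.582 RPM in replicates 1, 2, 3, 5 and 6, and male total 0.136, 0.315, 0.605, 0.693 and 0.514 RPM. The male fractions overlapped, and the difference of 0.31 had an exact permutation p of 0.135 (0.0476 without replicate 5 of male total). The sex difference over lysates was −0.30 (exact permutation p = 0.310).

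Over the 4 low genes and 5 contrasts each, 6 of 20 exact tests had p under 0.05, with no adjustment. The exact test was not run on all genes, so this count has no share over all genes beside it. As an alternative, all 17124 genes with any count were fitted with the edgeR quasi-likelihood test (Benjamini-Hochberg adjustment over all of them, FDR under 0.05). In this fit 6993 to 12900 genes had an unadjusted p under 0.05, depending on the contrast. Higher in male TRAP were 3 of the 6 genes, where 29.7% of all genes were. Their log2 fold changes were 2.69 ± 0.588 for fit, 2.60 ± 0.715 for to and 1.74 ± 0.703 for sxe1 (SE; edgeR adjusted p = 0.000865, 0.00644 and 0.0440). Higher in female TRAP were also 3 of the 6 genes, where 15.9% of all genes were, namely fit (3.49 ± 0.782, edgeR adjusted p = 0.00142), dsf (1.26 ± 0.431, adjusted p = 0.0253) and to (adjusted p = 0.00857, with no fold given because female total held no read). In the same fit retn was the 1 of the 6 genes lower in female TRAP, where 26.3% of all genes were.

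**Figure D2:**
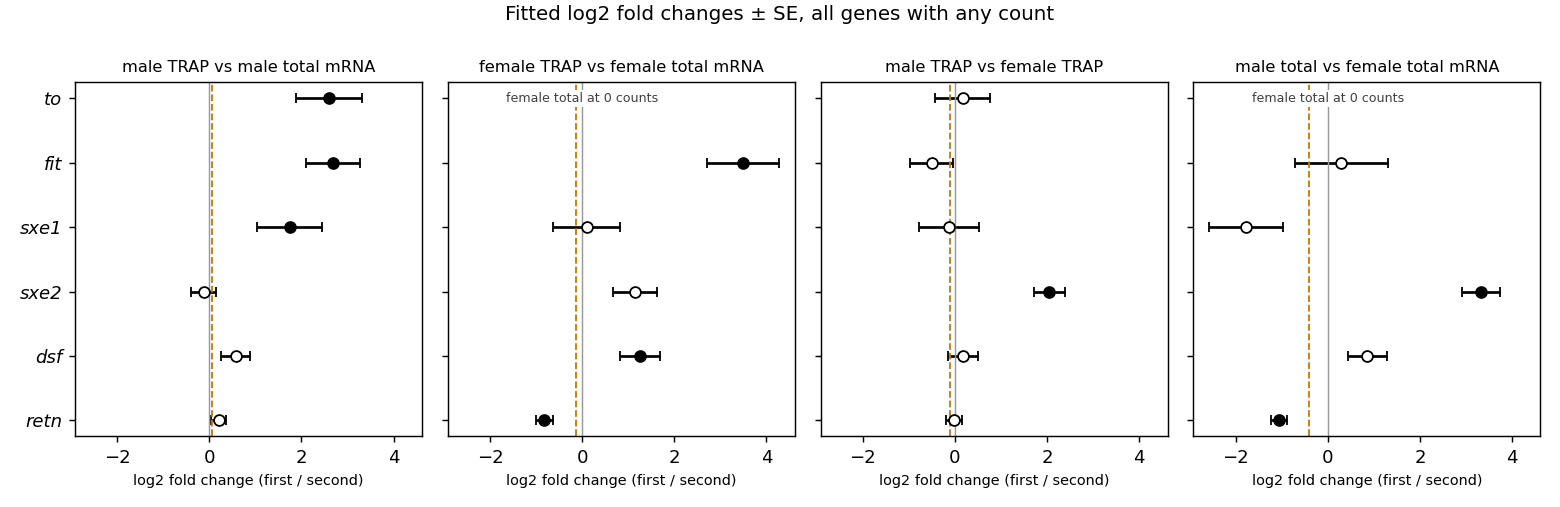
Log2 fold change ± SE (horizontal axis, first group over second) of each gene in the edgeR quasi-likelihood fit of all genes with any count, for the 4 comparisons; filled points have FDR under 0.05 and the dashed line is the median over all genes. Fit lies at 2.69 in males and 3.49 in females for TRAP over total mRNA, and sxe2 lies at 2.05 and 3.32 for males over females.

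Most markers of the fat body were higher in TRAP of both sexes, as were most neuronal markers. The neuronal medians of the log2 fold change were 1.88 in males and 1.19 in females. Of 12 fat body markers, 10 were higher and 2 lower in male TRAP than in male total, with a median log2 fold change of 2.37, and 9 were higher and 1 lower in female TRAP, with a median of 2.48 (edgeR quasi-likelihood test, FDR under 0.05). Of all 13137 genes tested, 36.1% were higher and 28.2% lower in male TRAP, and 17.8% were higher and 34.4% lower in female TRAP, with medians of 0.0049 and −0.26. Their summed level was 4210 to 13661 RPM in male TRAP against 1302 to 1683 in male total, and 12827 to 24186 RPM in female TRAP against 2008 to 2264 in female total. None of the 12 was at 0 in a group. Fat body protein 1 (Fbp1), the receptor for larval storage proteins, measured 2806 ± 1188 RPM in male TRAP against 89.4 ± 52.2 in male total, and Fbp2 measured 1101 ± 445 and 29.4 ± 15.0 RPM (SD, n = 5). Male TRAP replicate 1 had the lowest sum of fat body markers of its group and the lowest fit, sxe1 and retn levels, and its sums of neuronal (3323 RPM) and muscle markers (5576 RPM) were also the lowest. To had 2 reads in male TRAP replicate 3, where the fat body sum was highest, and 2 reads in replicate 1. The order of these 2 libraries in the level of to therefore rests on depth alone. In female TRAP, replicate 2 had the lowest fat body sum and the highest to and sxe1 levels. The part of fat body RNA in the TRAP levels of to, fit and sxe1 was not tested.

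Relatives of to reached higher levels. For the counts below, the shares over all genes were 36.1% higher and 28.2% lower in male TRAP, and 17.8% and 34.4% in female TRAP. Of 19 listed genes of the takeout family, 14 were tested, and 11 were higher and 1 lower in male TRAP (median log2 fold change 1.09), while 4 were higher and 0 lower in female TRAP (median 0.15; 9, 1, 6 and 0 with RLE size factors). Jhbp7, the next gene upstream of to on 3R, measured 86.0 ± 47.6 RPM in male TRAP against 8.34 ± 3.92 in male total (SD, n = 5), a log2 fold change of 3.40 ± 0.391 (SE, edgeR adjusted p = 1.17e-06). In females it measured 124 ± 38.03 against 9.09 ± 2.97 RPM (SD, n = 4; 3.53 ± 0.442, adjusted p = 4.99e-06). Jhbp15, a low gene of the family, was also higher in TRAP, with 0.918 ± 0.433 against 0.0990 ± 0.0616 RPM in males. All 5 tested relatives of sxe1, the Cyp4d cytochrome P450 genes, were higher in male TRAP (median 1.35; 4 with RLE size factors), and 2 of 5 in female TRAP (median 0.39; 3 with RLE). Cyp4d14 was one of them in both sexes, with log2 fold changes of 1.98 ± 0.150 and 1.59 ± 0.184 (SE, edgeR adjusted p = 4.00e-08 and 2.24e-06).

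The second question was which of the genes differed between the sexes. The sxe2 gene was higher in males in both fractions. In TRAP its level was 3.29, 2.20, 5.32, 2.23 and 2.36 RPM in male replicates 1, 2, 3, 5 and 6, and 0.375, 0.827, 0.404 and 1.05 RPM in female replicates 2, 3, 4 and 5. In total mRNA it was 3.45, 2.48, 4.42, 2.97 and 3.53 RPM in males and 0.479, 0.233, 0.145 and 0.207 RPM in females. Neither fraction showed any overlap of the sexes. The log2 fold change of males over females was 2.04 ± 0.333 in TRAP and 3.27 ± 0.414 in total mRNA (SE, edgeR quasi-likelihood adjusted p = 3.28e-05 and 8.02e-07). As ratios of pooled reads these were 4.04 (95% counting interval 3.20 to 5.15) and 13.1 (8.38 to 21.6). A higher male level was called for 32.9% of the 13137 genes tested in TRAP and for 33.1% in total mRNA.

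Within a sex, sxe2 was 3.08 ± 1.33 RPM in male TRAP against 3.37 ± 0.723 in male total (SD, n = 5), and the log2 fold change of −0.066 ± 0.274 was not called (SE, edgeR adjusted p = 0.837). Female TRAP held 0.663 ± 0.328 and female total 0.266 ± 0.147 RPM (SD, n = 4). The female fractions overlapped, and the log2 fold change of 1.16 ± 0.476 was at the edge of the threshold (edgeR adjusted p = 0.0494, and 0.0636 with the lysates as pairs), where 17.8% of all genes were called higher. Without replicate 3 or 5 of female TRAP, or 3, 4 or 5 of female total, the adjusted p was 0.0922 to 0.179. The sex difference in the TRAP contrast was −1.23 ± 0.551 (edgeR adjusted p = 0.0784, and 0.0469 with the lysates as pairs). Relative to the median over all genes, which was 0.48, it was −1.71. With RLE size factors the value was −1.665 (edgeR adjusted p = 0.0507), and DESeq2 gave an adjusted p of 0.0222.

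Male germline markers were also compared between the sexes. All 10 were higher in males in both fractions, with median log2 fold changes of 5.96 in TRAP and 5.99 in total mRNA, where the median over all genes was −0.14 and −0.63. Their summed level was 1140 to 5827 RPM in male TRAP, 2013 to 3357 in male total, 9.93 to 27.9 in TRAP of females and 4.29 to 50.4 in their total mRNA, and none was at 0 in a group. Among male TRAP libraries the germline sum was highest in replicate 1 (5827 RPM), while sxe2 was highest in replicate 3, whose germline sum was 1282 RPM. The part of the male germline in the level of sxe2 was not tested. Over all 13137 genes tested, 4326 were higher and 4739 lower in male than in female TRAP. In total mRNA 33.1% were higher and 56.6% lower in males. Of the 13 lipase relatives of sxe2, 5 were tested, and 0 were higher and 3 lower in male than in female TRAP. In total mRNA 1 of these relatives was higher and 4 were lower in males (1 and 3 with RLE size factors). The higher one was CG5162, at 1.30 ± 0.219 RPM in male against 0.262 ± 0.115 in female total (SD, n = 5 and 4), a log2 fold change of 1.93 ± 0.601 (SE, edgeR adjusted p = 0.00606). Yolk protein 3 (Yp3), a yolk protein of lipase descent, was lower in males, at 1.96 ± 0.661 RPM in male TRAP (SD, n = 5) and 10.9 ± 2.998 in female TRAP (SD, n = 4), a log2 fold change of −2.56 ± 0.243 (SE, edgeR adjusted p = 3.69e-08).

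The genes known for sex-biased expression in the adult head fat body, apart from sxe2, did not show a sex difference that passed the tests in the pupa. Of the 12 fat body markers, 0 were higher and 10 lower in male than in female TRAP, with a median log2 fold change of −0.80 (8 lower and −0.67 with RLE size factors). Of all 13137 genes tested, 4326 were higher and 4739 lower there, with a median of −0.14. In total mRNA 0 of the markers were higher and 9 lower in males, with a median of −0.78 beside −0.63 over all genes. With RLE size factors 1 marker was higher and 4 were lower in male total. The part of the fat body markers in the levels of to, fit and sxe1 was not tested. For to the difference of males over females on the log2(RPM + 0.5) scale was 0.038 in TRAP and 0.071 in total mRNA (exact permutation p = 0.738 and 0.167). For fit it was −0.23 in TRAP and 0.062 in total mRNA (exact permutation p = 0.349 and 0.532). For sxe1 it was −0.024 in TRAP and −0.29 in total mRNA (exact permutation p = 0.929 and 0.508), and the latter was 0.040 without replicate 2 of female total. The pooled ratio of males over females in TRAP had a 95% counting interval of 0.698 to 2.38 for to, 0.532 to 1.13 for fit and 0.654 to 1.59 for sxe1, and these intervals leave out the spread between lysates. In total mRNA the pooled reads of males against females were 5 against 0 for to, 10 against 3 for fit and 17 against 21 for sxe1. The counting interval of the ratio there was 0.415 to 9.11 for fit and 0.194 to 0.778 for sxe1. It also leaves out the spread between lysates, and replicate 2 held 16 of the 21 female reads of sxe1. For to no interval was given in total mRNA. The size of sex difference that these read numbers can detect was not tested.

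For dsf, male total held 0.453 ± 0.226 RPM (SD, n = 5) and female total 0.193 ± 0.0881 (SD, n = 4). The sexes overlapped, because replicate 1 of male total was low, and the difference of 0.43 on the log2(RPM + 0.5) scale had an exact permutation p of 0.0873 (0.0286 without that library). In TRAP the sexes measured 0.657 ± 0.117 and 0.553 ± 0.102 RPM (difference 0.13, exact permutation p = 0.206).

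The retn gene was the most abundant of the 6 and was highest in female total. Female total mRNA measured 12.8, 15.3, 16.01 and 16.97 RPM in replicates 2, 3, 4 and 5, and male total 6.82, 10.99, 11.6, 9.08 and 9.36 RPM in replicates 1, 2, 3, 5 and 6. The sexes did not overlap. Male TRAP measured 7.56, 11.4, 9.70, 10.4 and 14.2 RPM, and female TRAP 9.27, 8.38, 14.1 and 9.47 RPM. The TRAP levels of the sexes overlapped widely, at means of 10.7 ± 2.45 (SD, n = 5) and 10.3 ± 2.57 (SD, n = 4).

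The fold changes of retn are set beside the median over all genes, since scaling by TMM over all 18 libraries left that median at −0.26 for female TRAP over female total, at −0.14 for males over females in TRAP, at −0.63 in total mRNA and at 0.48 for the sex difference in the TRAP contrast. Retn was lower in female TRAP than in female total, by a log2 fold change of −0.81 ± 0.184 (SE, edgeR adjusted p = 0.00134), which was −0.55 relative to the median. It was lower in 4 of 4 female lysates, and 34.4% of all genes were called lower. When gene counts used just the records that overlap no other record, the value was −0.37 and was not called (edgeR adjusted p = 0.270). For retn that setting leaves out both forms of the last exon. The longer form held 48.4% of the gene's pooled reads in female TRAP and 54.0% in female total. In male lysates retn was higher in TRAP in 4 of 5, and the log2 fold change of 0.26 ± 0.164 was not called (edgeR adjusted p = 0.173). With RLE size factors this value was −0.065. Of the 2 genes tested, 0 were called in male TRAP against male total by edgeR, by DESeq2 and at an unadjusted p under 0.05, where 64.3% of all genes were called in edgeR.

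Between the sexes, retn was lower in male total, by a log2 fold change of −1.10 ± 0.173 (SE, edgeR adjusted p = 1.06e-05), which was −0.47 relative to the median; 56.6% of all genes were called lower in males. With RLE size factors, where the median was −0.040, the value was −0.52 (edgeR adjusted p = 0.0104). With records that overlap no other, which leave out the last exon, the value was −0.43 and not called (edgeR adjusted p = 0.132). In TRAP the log2 fold change was −0.031 ± 0.174 (edgeR adjusted p = 0.879), and it was 0.090 with RLE size factors. The sex difference in the TRAP contrast was 1.07 ± 0.246 (SE, edgeR adjusted p = 0.00294), or 0.59 relative to the median, where 39.1% of all genes had a higher TRAP contrast in males (5131 higher and 838 lower, but 413 and 1600 with RLE size factors). It was not called under RLE size factors (0.61, edgeR adjusted p = 0.1003), in DESeq2 (0.61, adjusted p = 0.0883) or with records that overlap no other (0.88, edgeR adjusted p = 0.0919).

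Relatives of retn and dsf were tested as well. The shares over all genes were 36.1% higher and 28.2% lower in male TRAP, and 17.8% and 34.4% in female TRAP. With RLE size factors 3248 genes were higher and 6191 lower in male TRAP, and 2978 and 3390 in female TRAP. Of 5 ARID genes, 3 were higher and 2 lower in male TRAP (2 and 2 with RLE size factors), and 0 were higher and 2 lower in female TRAP (2 and 2 with RLE size factors). Jarid2, a member of the Polycomb machinery, was higher in male TRAP by 1.32 ± 0.129 (SE, edgeR adjusted p = 2.44e-07). Hat-trick (htk) was lower in female TRAP, with 68.6 ± 2.81 against 110 ± 3.52 RPM (SD, n = 4). Of the 6 nuclear receptors listed with dsf, 4 were tested, and 3 were higher and 0 lower in male TRAP (3 and 1 with RLE size factors). In female TRAP their median was 0.17, and 0 of 4 were called (1 with RLE size factors). Hr51, a receptor of mushroom body neurons, was higher in males, at 5.595 ± 2.11 RPM in male against 1.74 ± 0.443 in female TRAP (log2 fold change 1.59 ± 0.244, edgeR adjusted p = 1.68e-05). Among 18 other genes of courtship, 13 were tested, and 8 were higher and 2 lower in male TRAP and 7 higher and 0 lower in female TRAP, beside 36.1% and 28.2% of all genes in males and 17.8% and 34.4% in females. The calcium channel gene cacophony (cac), which acts in courtship song, measured 748 ± 249 RPM in male TRAP against 69.0 ± 12.4 in male total (SD, n = 5). In male TRAP against male total, 5 genes of the sex determination hierarchy were higher and 1 lower of 7 tested, as were 3 and 2 of 8 clock genes, the same counts as with RLE size factors. For 6 glial markers the counts were 1 and 2 (1 and 4 with RLE), for 6 muscle markers 2 and 3 (2 and 4) and for 4 hemocyte markers 2 and 0 (0 and 0).

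**Figure D3:**
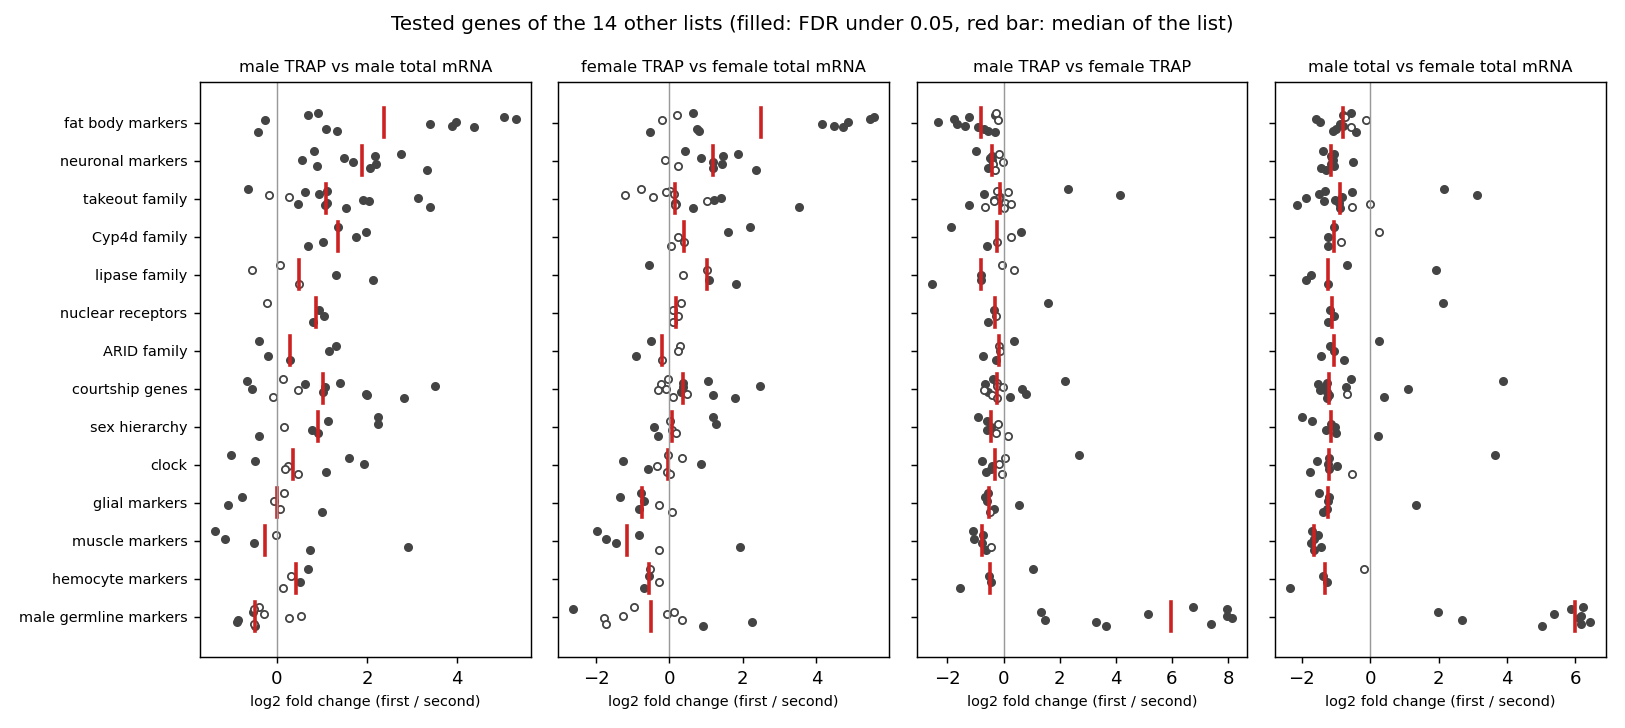
Log2 fold change (horizontal axes, first group over second, main edgeR fit) of every tested gene of the 14 other lists in the 4 comparisons; filled points have FDR under 0.05 and red bars are list medians. Fat body markers have medians of 2.37 and 2.48 in TRAP over total mRNA of males and females, and male germline markers have medians of 5.96 and 5.99 in males over females.

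The exon records placed these differences within the genes. By the filter used for records (over 2 CPM in 60% or more of the compared libraries), only records of retn entered the edgeR exact test, at FDR under 0.2. In female TRAP against female total, 3 of the 39 records were tested and 2 were lower in TRAP, where 33.5% of all records were. Both are forms of the last exon, with the end of the coding sequence and the 3′ untranslated region, and their log2 fold changes were −0.77 ± 0.126 and −0.78 ± 0.124 (SE, edgeR exact test adjusted p = 5.43e-05 and 4.08e-05). The first exon, with the 5′ untranslated region and the start of the coding sequence, was at −0.035 ± 0.311 (adjusted p = 0.946). In total mRNA both last-exon records were lower in males, by −0.33 ± 0.132 and −0.38 ± 0.133 (SE, edgeR exact test adjusted p = 0.0563 and 0.0266), where 38.7% of all records were. In male TRAP against male total 2 records were tested and 0 were called, and 0 had an unadjusted p under 0.05, where 78.0% of all records were called. The first exon did not pass the filter there, at 2.71 ± 0.799 RPM of all exon records in male TRAP and 1.44 ± 0.274 in male total (SD, n = 5). Fitted with no filter, its log2 fold change was 0.88 ± 0.196 (SE, edgeR exact test adjusted p = 0.000577). Between male and female TRAP 3 were tested and 0 were called, with 0 at an unadjusted p under 0.05, where 41.3% were called. The edgeR quasi-likelihood test also called 0 in both. The last count was 1 without replicate 3 of male TRAP and 1 without replicate 4 of female TRAP. With no filter on low records, 10 of 39 records were called in male TRAP against male total (58.6% of all records), 10 of 36 in female TRAP against female total (40.7%), 5 of 39 between the TRAP groups (31.2%) and 14 of 36 between the total groups (57.4%).

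The following shares of a gene's reads were chosen after their values were seen and are given as a description, with no test. The first exon of retn held 38.2% ± 5.61 of the gene's reads in male TRAP and 22.3% ± 5.26 in male total (SD, n = 5). The ranges, 29.4% to 42.6% and 14.9% to 28.3% respectively, did not overlap. In females it held 32.3% ± 10.2 in TRAP and 22.8% ± 5.12 in total mRNA (SD, n = 4), and the ranges overlapped.

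The reads of dsf were spread differently over its exons in the fractions. The first exon held 28 of 83 reads (33.7%) in male TRAP and 2 of 74 (2.703%) in male total, and 20 of 68 (29.4%) in female TRAP and 0 of 15 in female total. It had reads in every one of the 9 TRAP libraries and in 1 of the 9 total mRNA libraries. The fourth exon went the other way in males, with 0 of 83 reads in TRAP and 12 of 74 in total mRNA, but 8 of the 12 were in replicate 5 of male total. The third exon held 15 of 83 reads in male TRAP and 23 of 74 in male total, 2 of 68 in female TRAP and 0 of 15 in female total. The sexes overlapped in both fractions, since male total replicate 2 had 0 reads and the lowest male TRAP share, 7.69%, was below the highest female one, 9.09%. The antisense partner asRNA:CR43926, whose record overlaps the first dsf exon, held 4 to 16 reads in male TRAP, 8 to 31 in male total, 2 to 12 in TRAP of females and 1 to 5 in their total mRNA.

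In sxe2 the higher male level was seen along the gene. The last exon, with 76.2% of the pooled reads in male TRAP and 71.0% in male total, measured 1.57 ± 0.681 RPM of all exon records in male TRAP against 0.324 ± 0.160 in female TRAP. The first 2 exons, which hold 5′ untranslated sequence, had 32 and 20 reads in male total and 0 in female total. In male TRAP they had 15 and 3 reads, and in female TRAP 1 and 0.

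**Figure D4:**
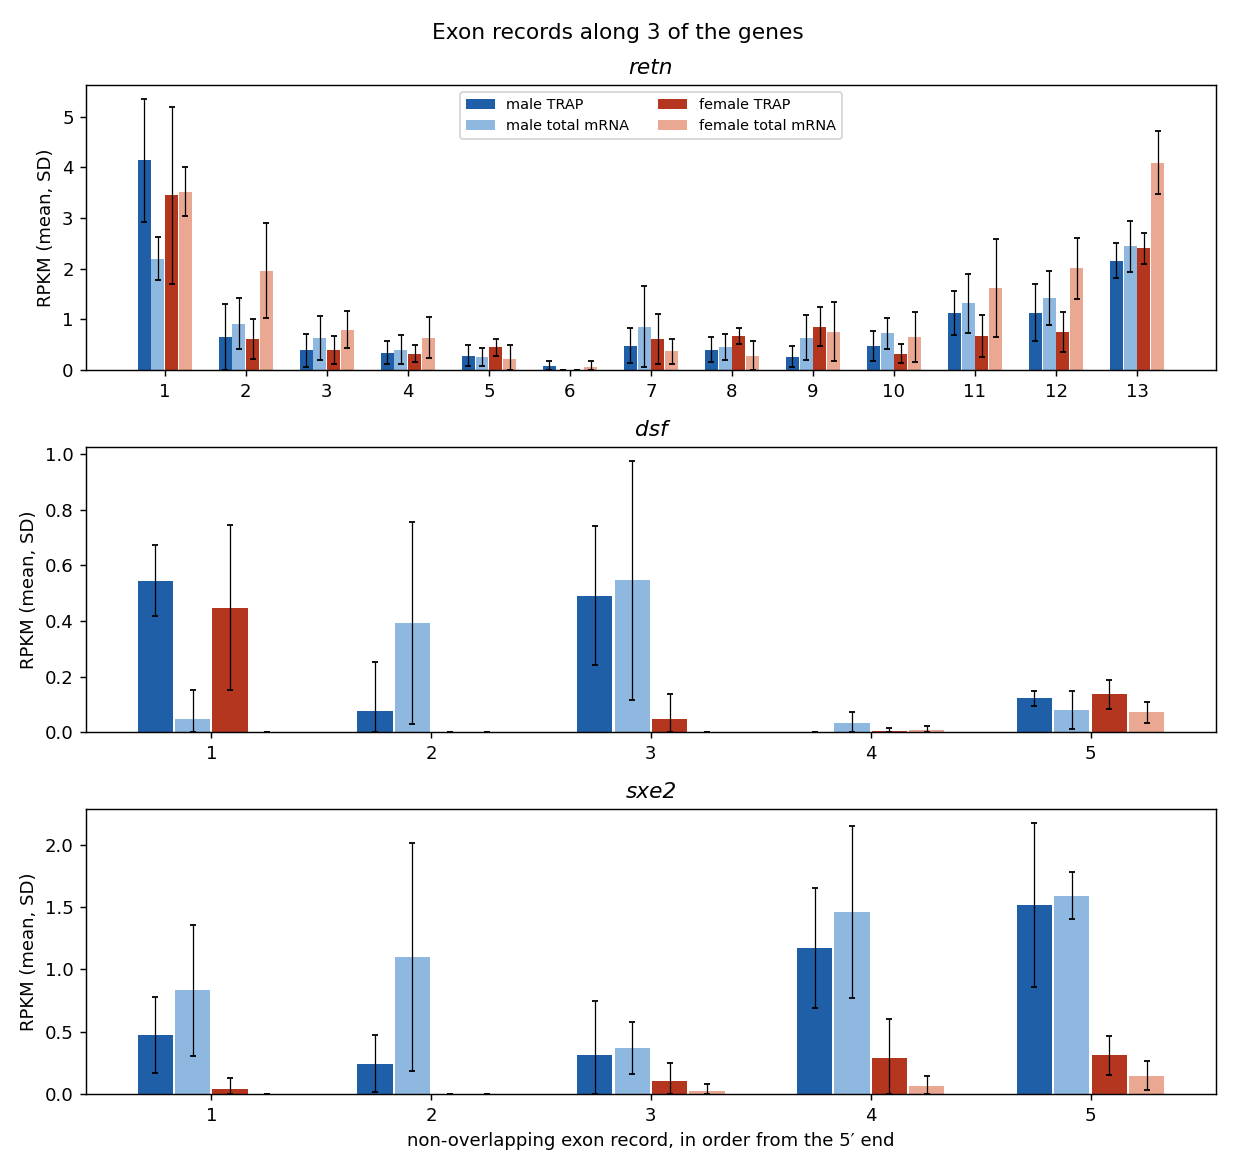
Mean RPKM with SD (vertical axes; the lower bars stop at 0) of the exon records that do not overlap each other, in order from the 5′ end, for retn, dsf and sxe2 in the 4 groups (5 male or 4 female libraries each). In dsf the first exon has 0.545 and 0.448 RPKM in male and female TRAP and 0.0472 and 0 in male and female total, and in retn the tallest bars are the first and last exons.

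For the 2 genes that passed the gene filter, the 3 genes with the most similar profile were taken by Pearson correlation of log2(CPM + 0.5) over the 18 libraries, as a description without a test, since the libraries of a group share sex and fraction. For sxe2 they were CG3500 (r = 0.956), CG33144 (r = 0.953) and asRNA:CR43464 (r = 0.950). The last was nearest in level to sxe2, at 2.98 RPM in male TRAP, 3.04 in male total, 0.625 in female TRAP and 0.181 in female total. For retn they were CG6040 (r = 0.950), CG12017 (r = 0.938) and lbk (r = 0.937), and CG6040 measured 170 RPM in male TRAP, 152 in male total, 167 in female TRAP and 204 in female total.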

How the data were processed

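RNA-seq of poly(A) mRNA was held for 18 libraries. The authors aligned 100-bp single-end reads to dm6 with STAR 2.7.2a and featureCounts gave the uniquely mapped reads of each exon record. The deposited count tables hold these raw counts, and the deposited RPM table holds the authors' division of each count by its library total (largest difference from the counts 4.5e-11). Which annotation release and strand setting the counting used is not given in the sources used here.

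Gene counts were summed over 69946 records that do not overlap within a gene, longest first. Genes over 1 CPM in at least 4 libraries were fitted over all 18 libraries with TMM scaling (edgeR 4.0.16, R 4.3.3, quasi-likelihood, FDR under 0.05). The study's design, the edgeR exact test at FDR under 0.2, was kept for exon records over 2 CPM in 60% or more of the compared libraries. Standard errors of genes come from the test statistic and those of records from the spread of log2 CPM over libraries. The 4 genes under the gene filter were tested by exact permutation with a pseudocount of 0.5 RPM. Between the fractions of a sex this permutation did not keep the lysate pairs. Counting intervals (95%, exact, conditional on the sum) and the floor of 3 counts cover counting error only, because reads carry no molecular identifiers. The gene and record tests were checked on simulated counts. The 6 members and the 14 other lists (129 genes, all matched) were chosen with earlier results of these data known, and each list names at most its 2 called genes with the largest change in a comparison.

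Same-numbered TRAP and total mRNA libraries of a sex come from 1 lysate (correlation of their deviations 0.172 to 0.778), so they are pairs. Alternatives were RLE and upper-quartile scaling, no filter, DESeq2 1.42.0, other thresholds, other gene counts, lysate or number blocks and leaving out each library.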

Additional observations from a re-analysis of the deposited data

Results flagged for a closer look

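Within the groups, 24 sets of libraries (6 genes in 4 groups) were screened for 1 library far from the rest, by its gap to the next library over the range of the group, and chance gives about 1 in 20. For to the highest library stood apart in male TRAP (replicate 2, gap 0.747 of the range) and in female TRAP (replicate 2, gap 0.846). For sxe1 the highest library stood apart in female total mRNA (replicate 2, gap 0.854). The sex difference in the TRAP contrast of retn, male minus female, was 1.07 on the log2 scale with an edgeR adjusted p of 0.00294, beside a median over all genes of 0.48. Retn was higher in TRAP in 4 of 5 male and 0 of 4 female lysates. The difference was not called with RLE size factors (0.61, edgeR adjusted p = 0.1003) or in DESeq2 (adjusted p = 0.0883). It was also not called with records that overlap no other, which leave out the last exon of retn (edgeR adjusted p = 0.0919).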

How the results depend on the processing

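Of the 6 genes, 2 entered the gene test and 4 fell under its filter, where the floor of 3 counts over a group is 0.0186 to 0.0384 RPM. Counts of genes called, in the order male TRAP against male total, female TRAP against female total, male against female TRAP, male against female total and sex difference in the TRAP contrast, were 0, 2, 1, 2 and 1. In the first comparison the count was 1 at FDR under 0.2, 3 with no filter and 3 with no filter and the replicate block, the latter combination chosen after seeing the data. In the second it was 4 with no filter or with no filter and the block, and 1 with the compared libraries alone, with the lysate block or with records overlapping no other. In the fourth it was 1 with the number block and 1 with records overlapping no other. For the sex difference it was 2 at FDR under 0.2, with the block and with no filter and the block, and 0 with RLE size factors and with records overlapping no other. Exon records called in the first 4 comparisons were 0, 2, 0 and 2, and 10, 10, 5 and 14 with no filter. With the replicate block they were 1 between the TRAP groups and 0 between the total groups, where FDR under 0.05 gave 1. Male and female libraries share only a number (correlation of deviations −0.29 to 0.102, none best with its own number).

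The log2 fold change of retn in male TRAP against male total turned to −0.065 with RLE size factors and −0.066 with DESeq2. Between the TRAP groups it turned to 0.090 with RLE, 0.089 with DESeq2, 0.092 with the number block, 0.34 with no filter and the block, and 0.45 with records overlapping no other. Relative to the median over all genes, retn in male TRAP against male total was at 0.25 with TMM and at 0.25 with RLE. Between the TRAP groups it was at 0.11 with TMM and 0.098 with RLE. The records overlapping no other leave out the last exon of retn. The cause of the turns was not tested. For sxe2 the sex difference in the TRAP contrast passed the threshold in DESeq2 (−1.65, adjusted p = 0.0222), while that of retn did not (0.61, adjusted p = 0.0883), so the count of 1 there is another gene. With no filter and the number block dsf was called higher in male total (1.48, edgeR adjusted p = 0.0458). RLE scaling changed the split of all genes called higher and lower in male TRAP from 4743 and 3709 to 3248 and 6191, in female TRAP from 2340 and 4525 to 2978 and 3390, and in male over female total from 4353 and 7433 to 5453 and 4950. Upper-quartile scaling changed it between the TRAP groups from 4326 and 4739 to 3933 and 6670.

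Leaving out each library gave 0 to 1 exon records between the TRAP groups, and 1 to 2 genes in female TRAP against female total and 1 to 2 for the sex difference. Directions turned for differences near 0: to between TRAP groups (−0.072 to 0.17) and its sex difference (−0.16 to 0.097), sxe1 between TRAP groups (−0.15 to 0.091) and total groups (−0.47 to 0.040), sxe2 in male TRAP against male total (−0.31 to 0.042) and retn between TRAP groups (−0.0997 to 0.15). For the 4 low genes, pseudocounts of 0.1 and 1 RPM changed no call. RLE, upper-quartile and DESeq2 fits were not run for them, since they do not enter those fits.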
